A study of Oryza sativa with 12 samples.

Results

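The AP2/ERF transcription factors of rice were followed in crowns, the compact stem base from which leaves and crown roots emerge, of plants grown without and with zinc. A gene was taken as a member when the product note of the deposited tables names AP2, ERF, DREB or an ethylene-responsive element or transcription factor, with 1 locus that matches these words left out. This gave 83 of 33277 genes by a rule that uses no measured value but was set with earlier results of these data known. By their notes, 80 of the 83 are factors of the family. The other 3 are OS03G0355600 and OS08G0243900, subunits of the clathrin adaptor that is also called AP2, and OS06G0592500, an ethylene-responsive transcriptional coactivator. The notes rarely give a rice gene symbol, so genes are named here by locus identifier, in which the digits after OS give the chromosome, and members lie on all 12 chromosomes.

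The family is typical of plants and is defined by the AP2/ERF domain, a short DNA-binding domain named after the flower regulator APETALA2 of Arabidopsis and the ethylene-responsive element binding factors of tobacco. Factors of the ERF type bind the GCC box found upstream of many defence genes and act downstream of ethylene and jasmonate signals. Factors of the DREB type bind the dehydration-responsive element upstream of genes for cold and drought tolerance, AP2-type factors act in meristems and flowers, and RAV factors carry a B3 domain beside the AP2/ERF domain. Some members activate their targets, while those with an EAR motif repress them.

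Plants were grown for 8 days in Yoshida nutrient solution with 0.1% agar and 1 mM KHCO3 in all groups. RNA sequencing gave 12 libraries in 4 groups of 3. Zn-inefficient genotypes (IR64, IR74 and Kinandang Patong) formed a group with 0 µM ZnSO4 and a group with 1.5 µM ZnSO4, and Zn-efficient genotypes (IR55179-3B-11-3, Nipponbare and RIL46) likewise. Nipponbare is also the source of the reference genome. Each library is 1 genotype at 1 supply, so the spread within a group is a spread between genotypes, any class difference compares these genotypes, 3 with 3, and no source used here says that the libraries came from separate cultures. In these bulk samples, fewer cells of a type and less RNA per cell cannot be told apart.

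The measurements come as 6 deposited tables, each of 1 comparison made by the authors, with no value per library, so an SD or the overlap of libraries cannot be given. Fold changes are log2 values, without Zn over with Zn or inefficient over efficient genotypes, with the standard error (SE) after them, and a 95% interval is the fold change with 1.96 SE on either side. A gene is called here when the authors' deposited DESeq2 adjusted p for a change beyond 2-fold is under 0.05. Mean levels per group, in normalised counts, were derived from each gene's overall mean and its contrasts in the authors' deposited tables. They are approximate, are not corrected for gene length, and are therefore compared between groups and not between genes. Over all libraries, the mean in the authors' deposited tables was 0.0783 to 3527 normalised counts for members, with a median of 85.0 against 49.4 for all genes. A mean of at least 20 was reached by 56 members, 53 of them factors by note; 16 had a mean of 1 to under 20, and 11 had a mean under 1.

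By the deposited test of a change beyond 2-fold, 5 members rose in Zn-inefficient crowns without Zn, and none was called lower. Of 83 members, 65 had an adjusted p in that comparison, the others mostly being below the authors' filter on low means, and 5 of these (7.69%) were called higher, where 2.42% of all genes tested were called higher and 1.08% lower. In Zn-efficient crowns without Zn, 2 of 68 members tested (2.94%) were called higher and none lower, where 0.246% of all genes were called higher and 0.0345% lower. Both of these genes are among the 5. In the pooled comparison over all genotypes the same 2 genes of 67 (2.99%) were called higher and none lower, against 0.922% and 0.197% of all genes. These shares describe the family and were not tested against other families. The spread of all genes around 0 was wider than their SEs in these comparisons. When the SEs were widened to match this spread, OS12G0582900 was the 1 member still called, in inefficient and in efficient genotypes. None was then called in the pooled comparison. The spread also takes in any true responses to Zn, so this widening can be too strong. Of the 5 genes, 3 are known from their notes only by an ERF domain, 1 by an AP2 domain, and 1 is described as a relative of Arabidopsis ERF2; they lie on chromosomes 1, 3, 4, 6 and 12.

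OS06G0145700, known from its note only by an ERF domain, was almost silent in crowns with Zn. Means derived from the authors' deposited tables were 71.9 normalised counts without Zn and 0.984 with Zn in inefficient genotypes, and 32.4 without Zn and 0.178 with Zn in efficient genotypes. In both classes the level with Zn was under 1 count and the level without Zn was well above it. The log2 fold change in the authors' deposited table was 6.19 (SE 1.16, DESeq2 adjusted p 0.000541) in inefficient genotypes. In efficient genotypes it was 7.51 (SE 1.43, DESeq2 adjusted p 0.00275) in the authors' deposited table. Because the level with Zn was so close to 0, the size of these folds is poorly fixed, and the 95% intervals from the authors' deposited tables were 3.91 to 8.47 in inefficient and 4.70 to 10.31 in efficient genotypes. The difference of the 2 responses computed from the authors' deposited tables, inefficient minus efficient, was -1.32 (SE 1.84), with an interval of -4.93 to 2.30 that allows either class to respond more.

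OS12G0582900, noted as similar to an AP2 domain protein, gave the most precise large rise. Its means derived from the authors' deposited tables were 734 normalised counts without Zn and 13.1 with Zn in inefficient genotypes, and 289.7 without Zn and 18.6 with Zn in efficient genotypes. It was thus low with Zn and high without Zn in both classes. The authors' deposited table gives a log2 fold change of 5.81 (SE 0.44, DESeq2 adjusted p 3.27e-25) in inefficient genotypes. For efficient genotypes the authors' deposited table gives 3.96 (SE 0.42, DESeq2 adjusted p 2.16e-09). The response was larger in inefficient genotypes by 1.85 (SE 0.61, 95% interval 0.66 to 3.04), computed from the authors' deposited tables. Over all genes this difference missed the threshold, with a Benjamini-Hochberg adjusted p of 0.0766 computed from the authors' deposited tables.

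OS03G0860100 is described as a relative of AtERF2, an Arabidopsis activator that binds the GCC box. Derived from the authors' deposited tables, its means were 102 normalised counts without Zn and 2.64 with Zn in inefficient genotypes, and 10.5 without Zn and 3.91 with Zn in efficient genotypes. It stood out in a single group, inefficient crowns without Zn. The log2 fold change in the authors' deposited table was 5.27 (SE 1.04, DESeq2 adjusted p 0.00207) in inefficient genotypes. In efficient genotypes the authors' deposited table holds 1.43 (SE 1.02, DESeq2 adjusted p 1). The difference of responses computed from the authors' deposited tables was 3.84 (SE 1.46, 95% interval 0.99 to 6.70), with a Benjamini-Hochberg adjusted p of 0.162. A call in 1 class and not in the other is therefore not shown here to be a difference between the classes for this gene. Both this gene and OS06G0145700 passed the filter on low means through the level they reached without Zn.

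OS01G0693400, with an ERF DNA-binding domain, was the 1 member whose difference of response between the classes passed the threshold. Its means derived from the authors' deposited tables were 1088 normalised counts without Zn and 202 with Zn in inefficient genotypes, and 446 without Zn and 223 with Zn in efficient genotypes. The classes were thus close with Zn and apart without it. In the authors' deposited table the log2 fold change was 2.43 (SE 0.29, DESeq2 adjusted p 6.27e-05) in inefficient genotypes. It was 1.00 (SE 0.29, DESeq2 adjusted p 1) in efficient genotypes by the authors' deposited table. The difference computed from the authors' deposited tables was 1.43 (SE 0.41, 95% interval 0.63 to 2.22), with a Benjamini-Hochberg adjusted p of 0.0257. Of 65 members with this test, 1 was called higher (1.54%) and none lower, where 1.58% of 24127 genes were called higher and 0.783% lower, so the family's share was close to that of all genes.

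OS04G0546800, a further gene with an ERF domain, was well measured in all groups. Its means derived from the authors' deposited tables were 987 normalised counts without Zn and 303 with Zn in inefficient genotypes, and 756 without Zn and 394 with Zn in efficient genotypes. Both classes had the higher level without Zn. The log2 fold change was 1.71 (SE 0.18, DESeq2 adjusted p 0.00469) in inefficient genotypes by the authors' deposited table. In efficient genotypes it was 0.94 (SE 0.18, DESeq2 adjusted p 1) in the authors' deposited table, where a 2-fold change is the value that had to be exceeded. The difference computed from the authors' deposited tables was 0.77 (SE 0.26, 95% interval 0.26 to 1.27), with a Benjamini-Hochberg adjusted p of 0.0867.

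**Figure D1:**
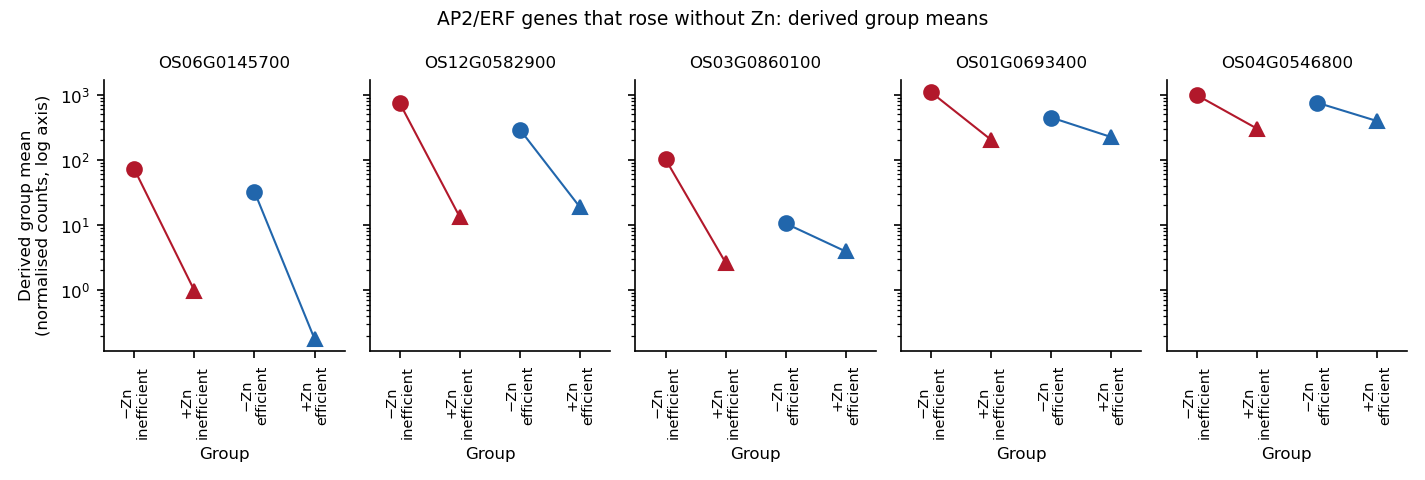
Mean level per group, in normalised counts on a log axis, derived from the authors' deposited tables for the 5 members called higher without Zn in inefficient genotypes; circles are 0 µM ZnSO4, triangles 1.5 µM ZnSO4, red inefficient and blue efficient genotypes, and lines join the supplies within a class. OS06G0145700 and OS12G0582900 drop steeply with Zn in both classes, while OS03G0860100 is at 102 in inefficient crowns without Zn and at 10.5 or less in the other groups.

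The deposited test asks for more than a 2-fold change, so smaller responses were looked at with a test of no change, computed from the fold changes and SEs in the authors' deposited tables. By this test 13 of 65 members (20%) were higher and 2 (3.08%) lower in inefficient genotypes without Zn, where 17% of all genes were higher and 15.2% lower. In efficient genotypes 6 of 68 members (8.82%) were higher and 2 (2.94%) lower, where 4.89% of all genes were higher and 2.97% lower. All 8 members that changed in efficient genotypes were among the 15 that changed in inefficient ones, with the same sign in each case, which is 53.3% of the 15 and 100% of the 8. Of all genes, 1802 passed in both classes with the same sign, which is 23.2% of the 7769 that passed in inefficient and 88.0% of the 2048 that passed in efficient genotypes. The 8 members are OS06G0145700, OS12G0582900, OS01G0693400, OS04G0546800, OS04G0398000, OS04G0648900, OS02G0657000 and OS06G0181700. Over all genotypes 15 of 67 members were higher and 7 lower by this test, where 17.9% of all genes were higher and 16.2% lower.

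Of these 8, 4 did not pass the deposited test of a change beyond 2-fold in either class, 2 of them higher and 2 lower without Zn. OS04G0648900, a relative of DREB2F, had means derived from the authors' deposited tables of 838 normalised counts without Zn and 353 with Zn in inefficient genotypes, and 744 without Zn and 396 with Zn in efficient genotypes. Its log2 fold changes in the authors' deposited tables were 1.25 (SE 0.13) in inefficient and 0.91 (SE 0.13) in efficient genotypes. OS04G0398000, with an ERF domain, had 1.41 (SE 0.29) in inefficient and 0.98 (SE 0.28) in efficient genotypes by the authors' deposited tables. Both of these genes were higher without Zn in each class.

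Over all genotypes the test of no change also gave OS01G0899800, OS02G0797100, OS05G0121600, OS06G0639200 and OS07G0575000 as lower without Zn. OS05G0121600 changed the least of these, by -0.34 (SE 0.13), and OS07G0575000 had a mean of only 4.43 normalised counts. The members lower in each class were OS02G0657000, noted as the AP2 domain protein Rap211, and OS06G0181700, with an ERF domain. For OS02G0657000 the means derived from the authors' deposited tables were 85.0 normalised counts without Zn and 252 with Zn in inefficient genotypes, and 108 without Zn and 232 with Zn in efficient genotypes. The log2 fold changes in the authors' deposited tables were -1.57 (SE 0.31) in inefficient and -1.11 (SE 0.30) in efficient genotypes. OS06G0181700 had 59.2 normalised counts without Zn and 141 with Zn in inefficient genotypes, and 66.6 without Zn and 175 with Zn in efficient genotypes, derived from the authors' deposited tables. Its log2 fold changes in the authors' deposited tables were -1.25 (SE 0.34) in inefficient and -1.40 (SE 0.34) in efficient genotypes.

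The remaining 7 members past the test of no change in inefficient genotypes were higher without Zn there. They are OS03G0860100, OS02G0654700, OS06G0166400, OS03G0183200, OS05G0497200, OS03G0183000 and OS02G0782700. OS02G0654700, whose note gives a role in abiotic stress, came nearest to a call after the 5, with means derived from the authors' deposited tables of 309 normalised counts without Zn and 91.4 with Zn in inefficient genotypes, and 214 without Zn and 171 with Zn in efficient genotypes. Its log2 fold changes in the authors' deposited tables were 1.76 (SE 0.34, DESeq2 adjusted p 0.411) in inefficient and 0.32 (SE 0.34) in efficient genotypes. The difference computed from the authors' deposited tables was 1.43 (SE 0.48), with a Benjamini-Hochberg adjusted p of 0.0885. OS06G0166400, a relative of the Arabidopsis factor TINY, had 1.39 (SE 0.28) in inefficient and 0.68 (SE 0.28) in efficient genotypes by the authors' deposited tables. OS05G0497200, noted as a regulator of spikelet meristem and floral organ identity, had 1.01 (SE 0.34) in inefficient and 0.15 (SE 0.34) in efficient genotypes by the authors' deposited tables.

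**Figure D2:**
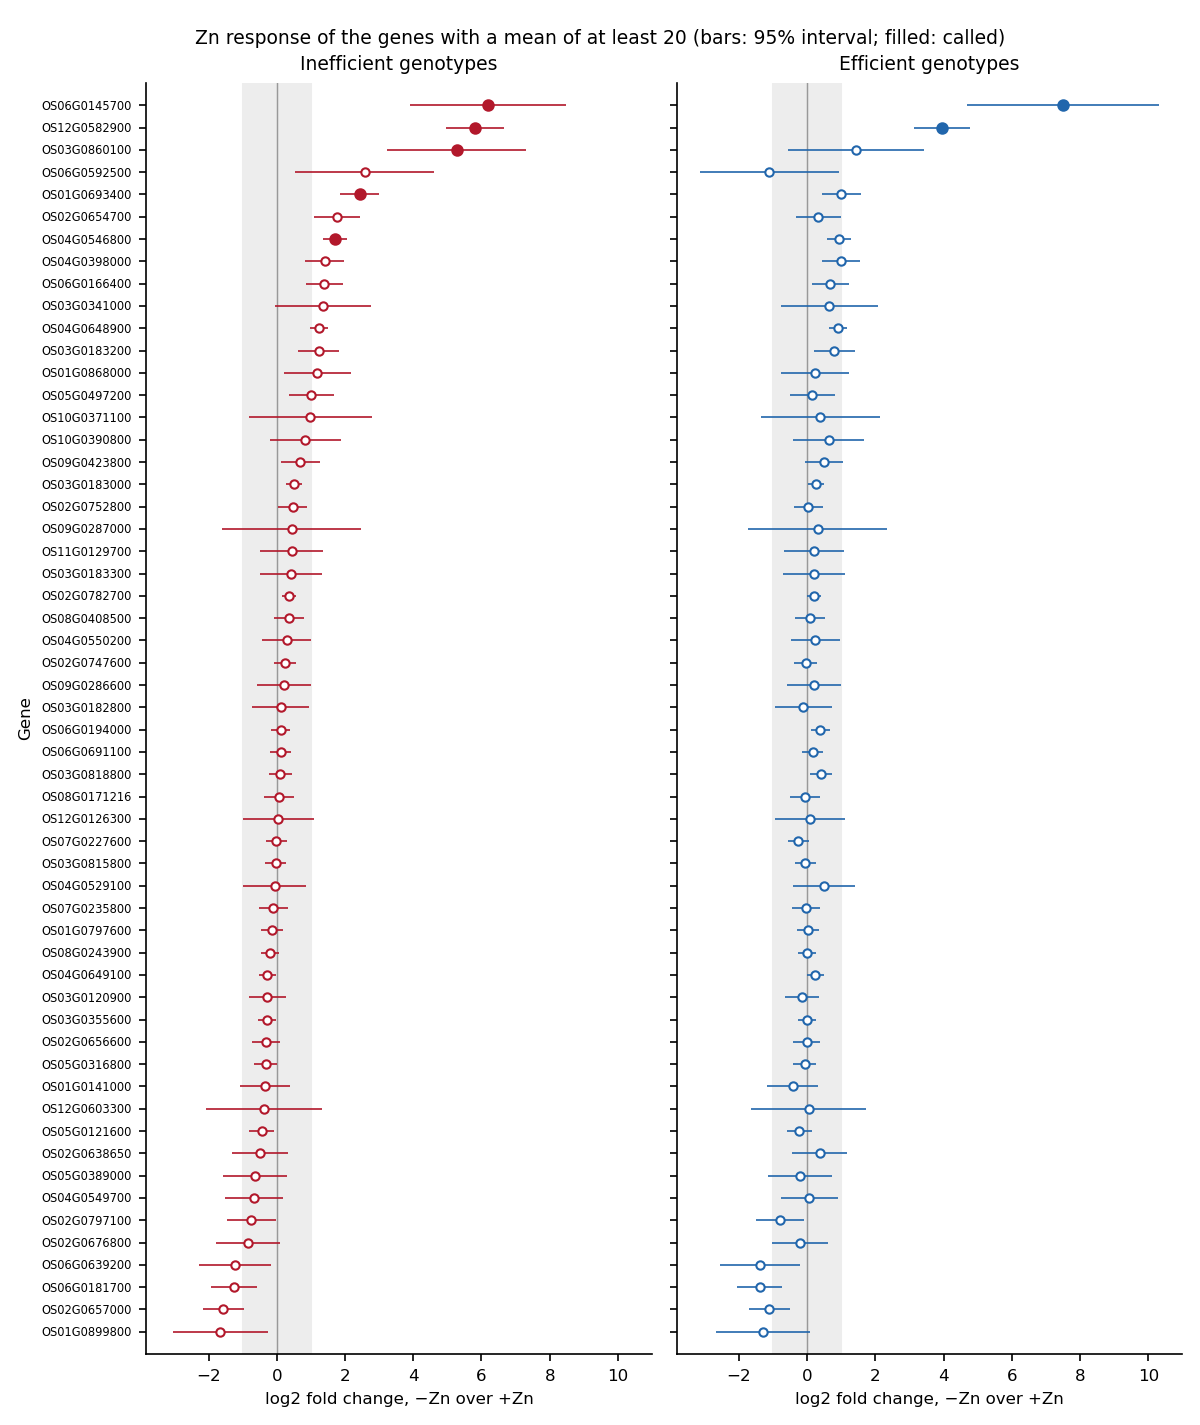
Log2 fold change without Zn over with Zn for the 56 members with a mean of at least 20, in inefficient genotypes (left, red) and efficient genotypes (right, blue), from the authors' deposited tables; bars are 95% intervals, filled points are called, and the grey band is a change within 2-fold. Of the 56 intervals, 23 lie inside the band in inefficient and 26 in efficient genotypes.

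The family as a whole was centred near 0. Among the 56 members with a mean of at least 20, the median log2 fold change in the authors' deposited tables was 0.11 in inefficient and 0.15 in efficient genotypes, where it was 0.00 and -0.01 for all genes with such a mean. Values were positive for 33 of the 56 in inefficient and for 35 in efficient genotypes. The 95% interval lay within 2-fold for 23 of 56 members (41.1%) in inefficient genotypes, where 43.1% of all genes of such a mean had such an interval. In efficient genotypes it did for 26 members (46.4%), where 53.7% of all genes did, and over all genotypes for 31 members (55.4%), where 58.6% did. The interval of the difference of responses lay within 2-fold for 21 members (37.5%), where 41.3% of all genes had such an interval. For the other members a change of 2-fold or more in at least 1 direction could not be left aside at this precision. The median SE of the 56 was 0.324 in inefficient genotypes by the authors' deposited table, against 0.290 for all genes of such a mean.

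The responses of the 2 classes ran alike across the family, by Spearman's rho about as much as over all genes. Of the 56 members, 29 were positive in both classes, 17 negative in both and 10 of opposite sign. The same counts over all genes were not taken, so these do not set the family apart. Across these genes, which share libraries and are not independent replicates, Pearson's r of the responses was 0.82 and Spearman's rho 0.76, against 0.653 and 0.765 over all genes of such a mean. Without the 5 called genes, r was 0.60. The value lay further from 0 in inefficient than in efficient genotypes for 42 of the 56 (75%), as it did for 71.3% of all genes of such a mean. The family's share was thus close to that of genes in general.

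**Figure D3:**
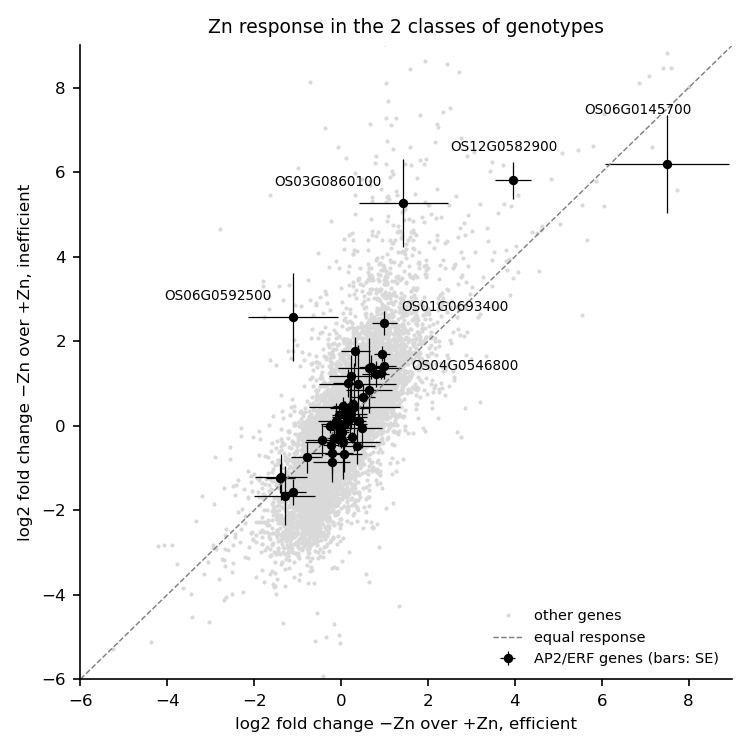
Log2 fold change without Zn over with Zn in inefficient genotypes (vertical) against efficient genotypes (horizontal), from the authors' deposited tables; black points with SE bars are the 56 AP2/ERF genes with a mean of at least 20, grey points are other genes of such a mean, and the dashed line marks equal responses. Of the genes of such a mean, 50 lie outside the axes; OS12G0582900, OS03G0860100 and OS01G0693400 lie above the line, and OS06G0592500, which has no deposited p, lies at 2.57 and -1.11.

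By the words of the notes, ERF relatives with a named counterpart number 14, of which 7 had a mean of at least 20. OS06G0194000, a relative of tobacco NtERF5 and the member with the highest mean, 3527 normalised counts in the authors' deposited tables, had log2 fold changes there of 0.11 (SE 0.14) in inefficient and 0.38 (SE 0.14) in efficient genotypes. OS09G0287000, a relative of AtERF5, had 0.44 (SE 1.04) in inefficient and 0.31 (SE 1.04) in efficient genotypes by the authors' deposited tables. Its SE was well above the median of 0.324 for members in inefficient genotypes, although its mean was 686 normalised counts in the authors' deposited tables. The median of the 7 was 0.12 in inefficient and 0.31 in efficient genotypes, from the authors' deposited tables, and the 1 called member was OS03G0860100.

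Genes known only by an ERF domain form the largest class, with 21 members and 14 of a mean of at least 20. It holds 3 of the 5 called genes, and its median was 0.25 in inefficient and 0.22 in efficient genotypes, from the authors' deposited tables. OS09G0286600, at 1891 normalised counts, had 0.20 (SE 0.40) in inefficient and 0.20 (SE 0.40) in efficient genotypes by the authors' deposited tables. The lowest value of the class in inefficient genotypes was that of OS01G0899800, -1.65 (SE 0.71) by the authors' deposited table, and it was -1.30 (SE 0.70) in efficient genotypes.

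Of 7 DREB relatives, factors named for drought and cold elements, 6 were tested in inefficient and 7 in efficient genotypes, and none was called. So few genes cannot be told from the 2.42% higher and 1.08% lower of all genes in inefficient genotypes. The 6 DREB relatives with a mean of at least 20 had a median log2 fold change of -0.49 in inefficient and 0.01 in efficient genotypes, from the authors' deposited tables. Their values in inefficient genotypes ran between -0.85 for OS02G0676800, a DREB1E relative, and 1.25 for OS04G0648900, in the authors' deposited table. The DREB2B relatives among the members were OS02G0752800, OS02G0656600 and OS02G0797100, with 0.46 (SE 0.21), -0.32 (SE 0.21) and -0.75 (SE 0.37) in inefficient genotypes by the authors' deposited table. In efficient genotypes they had 0.04 (SE 0.21), -0.01 (SE 0.20) and -0.79 (SE 0.36) by the authors' deposited table. None of these 3 passed the deposited test or the test of no change in either class. Over all genotypes OS02G0797100 was lower without Zn by the test of no change, at -0.77 (SE 0.24, Benjamini-Hochberg adjusted p 0.00593). Genes whose notes spell the name out without the word DREB are not members, so this class is only a part of the DREB relatives. OS05G0346200, a further DREB2B relative by such a note, had 0.87 (SE 0.38) in inefficient and 0.00 (SE 0.38) in efficient genotypes by the authors' deposited tables.

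Relatives of the RAP2 proteins of Arabidopsis, among them factors of the low-oxygen response, number 8, of which 4 had a mean of at least 20. Their median was 0.94 in inefficient and 0.46 in efficient genotypes, from the authors' deposited tables. None was called, of 4 tested in inefficient and 5 in efficient genotypes, too few to tell from the shares of all genes. OS03G0183000, a RAP2.6 relative, had means derived from the authors' deposited tables of 3380 normalised counts without Zn and 2368 with Zn in inefficient genotypes, and 3814 without Zn and 3167 with Zn in efficient genotypes. Its log2 fold changes in the authors' deposited tables were 0.51 (SE 0.12) in inefficient and 0.27 (SE 0.12) in efficient genotypes. OS03G0341000, a RAP2.2 relative, had 1.36 (SE 0.72) in inefficient and 0.65 (SE 0.72) in efficient genotypes by the authors' deposited tables.

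Of 5 factors whose notes name stress or defence, all tested in both classes, none was called. These are too few to tell from the shares of all genes. Their median was 0.36 in inefficient and 0.19 in efficient genotypes, from the authors' deposited tables. OS02G0782700, noted for defence and abiotic stress, had means derived from the authors' deposited tables of 4165 normalised counts without Zn and 3241 with Zn in inefficient genotypes, and 3348 without Zn and 2929 with Zn in efficient genotypes. Its log2 fold changes in the authors' deposited tables were 0.36 (SE 0.10) in inefficient and 0.19 (SE 0.10) in efficient genotypes. OS01G0797600, noted as a repressor with an EAR motif, had -0.15 (SE 0.17) in inefficient and 0.02 (SE 0.17) in efficient genotypes by the authors' deposited tables. OS01G0141000, which has a B3 domain beside the AP2/ERF domain, had -0.35 (SE 0.38) in inefficient and -0.43 (SE 0.38) in efficient genotypes by the authors' deposited tables.

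Notes on development or storage mark 7 factors, of which 6 were tested in each class. None was called, among too few genes to tell from the shares of all genes. The 6 with a mean of at least 20 had a median of -0.19 in inefficient and 0.06 in efficient genotypes, from the authors' deposited tables. OS07G0235800 and OS03G0818800, both noted for inflorescence architecture and the floral meristem, had -0.10 (SE 0.21) and 0.11 (SE 0.17) in inefficient genotypes by the authors' deposited table. In efficient genotypes they had -0.03 (SE 0.21) and 0.40 (SE 0.17) by the authors' deposited table. OS04G0649100, noted for seed shattering through the abscission zone, had -0.27 (SE 0.13) in inefficient and 0.24 (SE 0.13) in efficient genotypes by the authors' deposited tables. The difference computed from the authors' deposited tables was -0.51 (SE 0.18), with a Benjamini-Hochberg adjusted p of 0.122. OS05G0389000, noted for cell elongation and proliferation in the root meristem, had -0.64 (SE 0.48) in inefficient and -0.21 (SE 0.48) in efficient genotypes by the authors' deposited tables.

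Of 18 genes known only by an AP2 domain, 11 had a mean of at least 20, and OS12G0582900 was the 1 called. The median of the 11 was 0.24 in inefficient and 0.07 in efficient genotypes, from the authors' deposited tables. OS11G0129700 and OS12G0126300 lie in the duplicated ends of chromosomes 11 and 12, where reads may be split between near-identical copies. They had 0.43 (SE 0.47) and 0.05 (SE 0.53) in inefficient genotypes by the authors' deposited table.

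The 27 members with a mean under 20 gave no call and little precision, with a median SE of 2.24 in inefficient genotypes by the authors' deposited table. OS05G0536250, an AP2 domain gene, had means derived from the authors' deposited tables of 48.5 normalised counts without Zn and 0.689 with Zn in inefficient genotypes, and 24.1 without Zn and 1.29 with Zn in efficient genotypes. Its log2 fold changes in the authors' deposited tables were 6.14 (SE 2.77) in inefficient and 4.22 (SE 2.68) in efficient genotypes. The fold was as large as that of the called genes, but its 95% interval of 0.71 to 11.56 in inefficient genotypes, from the authors' deposited table, included changes under 2-fold. This gene was chosen for naming after its values were seen.

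Neighbours by locus number did not all respond alike. OS03G0182800, OS03G0183000, OS03G0183200 and OS03G0183300 follow each other closely on chromosome 3, and their log2 fold changes in inefficient genotypes were 0.12, 0.51, 1.23 and 0.42 in the authors' deposited table. On chromosome 4, OS04G0546800 at 1.71 is followed by OS04G0547600 at 2.35 (SE 1.33), OS04G0549700 at -0.67 and OS04G0550200 at 0.29 in inefficient genotypes by the authors' deposited table. Only OS04G0546800 of these 8 was called by the deposited test.

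Between the classes no member was called at either supply. Of 82 members tested, none was called higher or lower in inefficient than in efficient crowns without Zn, where the authors' deposited DESeq2 test called 0.274% of all genes higher and 0.0246% lower. With Zn, 0 of 82 members were called, where 0% of all genes were called higher and 0.00923% lower in the authors' deposited table. Over both supplies, 0 of 82 were called, where 0.0339% were called higher and 0.0185% lower. At an unadjusted p under 0.05 in the authors' deposited tables, 1 of 82 members passed without Zn, 0 with Zn and 0 over both supplies, where 1.31%, 0.206% and 0.579% of all genes did. By the test of no change, computed from the authors' deposited tables, 3 members were higher (3.66%) and 4 lower (4.88%) without Zn, where 2.44% of all genes were higher and 1.6% lower. With Zn that test called 0 members, where 0.0185% of all genes were higher and 0.0492% lower. Over both supplies it called none higher and 2 lower, where 0.333% of all genes were higher and 0.471% lower. The 95% interval of the class difference lay within 2-fold for 31 of the 56 members with a mean of at least 20 (55.4%) without Zn, for 32 (57.1%) with Zn and for 40 (71.4%) over both supplies. For all genes of such a mean these shares were 57.1%, 64.1% and 74.4%.

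The 3 members higher in inefficient crowns without Zn by the test of no change were OS01G0693400, OS12G0582900 and OS03G0860100, which are also among the 5 genes with a called Zn response. Without Zn their class differences, inefficient over efficient, were 1.29 (SE 0.28), 1.34 (SE 0.38) and 3.28 (SE 0.94) by the authors' deposited table. With Zn they were -0.14 (SE 0.29), -0.51 (SE 0.48) and -0.57 (SE 1.11) by the authors' deposited table. The Zn and class comparisons share the libraries of inefficient crowns without Zn, so these values are not independent of the Zn responses above.

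The 4 members lower in inefficient crowns without Zn were OS02G0638650, OS05G0121600, OS03G0818800 and OS04G0649100. OS05G0121600, noted for starch biosynthesis, had means derived from the authors' deposited tables of 1286 normalised counts in inefficient and 2316 in efficient genotypes without Zn, and 1754 in inefficient and 2729 in efficient genotypes with Zn. It was lower in inefficient crowns at both supplies, by -0.85 (SE 0.19) without Zn and -0.64 (SE 0.19) with Zn in the authors' deposited tables. OS03G0818800 had 269.5 normalised counts in inefficient and 422 in efficient genotypes without Zn, and 251 in inefficient and 319 in efficient genotypes with Zn, derived from the authors' deposited tables. OS05G0121600 and OS03G0818800 are also the 2 genes lower by this test over both supplies. Across the 56 members with a mean of at least 20, the median class difference in the authors' deposited tables was -0.11 without Zn and -0.16 with Zn, where it was 0.01 and -0.01 for all genes. Values were positive for 23 of the 56 without Zn and for 17 with Zn, and for 0 of the 6 DREB relatives with Zn.

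**Figure D4:**
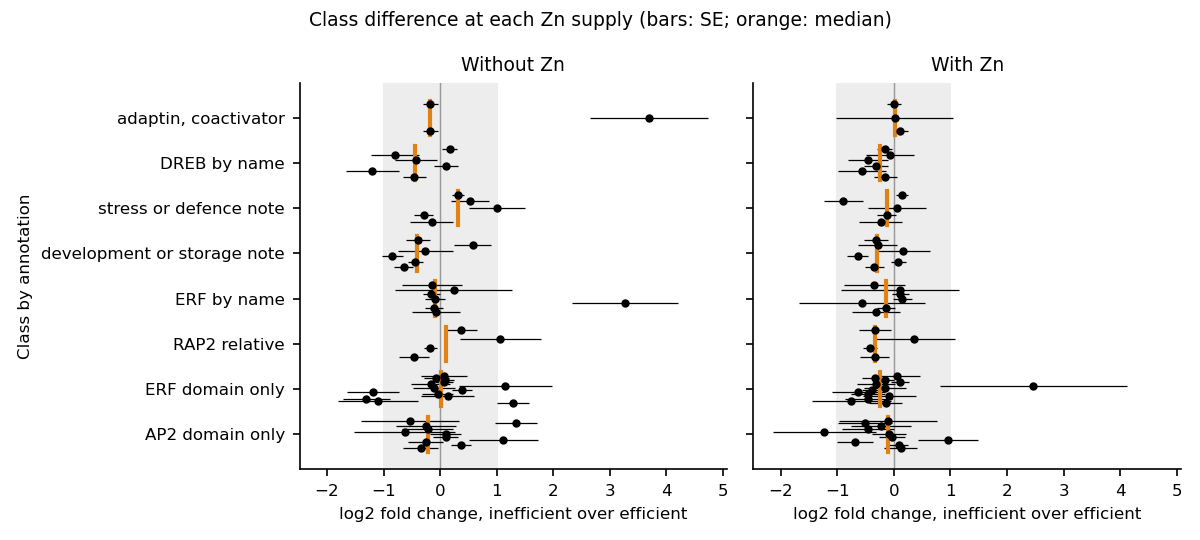
Log2 fold change of inefficient over efficient genotypes without Zn (left) and with Zn (right) for the 56 members with a mean of at least 20, by annotation class, from the authors' deposited tables; bars are SEs, orange lines class medians, and the grey band is a difference within 2-fold. With Zn, 39 of the 56 members lie below 0, among them the 6 DREB relatives, at -0.57 to -0.06. Without Zn, OS03G0860100 lies at 3.28 and OS06G0592500, which has no deposited p, at 3.69, and no member is called.

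The 3 members that are not factors behaved as follows. The adaptin subunits OS03G0355600 and OS08G0243900 had -0.29 (SE 0.13) and -0.19 (SE 0.13) in inefficient genotypes by the authors' deposited table. The coactivator OS06G0592500 has a mean and fold changes but no deposited p in any of the authors' deposited tables, so it could not be called. Its means derived from the authors' deposited tables were 3189 normalised counts without Zn and 536 with Zn in inefficient genotypes, and 247 without Zn and 532 with Zn in efficient genotypes. The SE was 1.04 in both Zn responses within a class, and the log2 fold change in the authors' deposited tables was 2.57 in inefficient and -1.11 in efficient genotypes. A missing p at a mean well above 0 is how DESeq2 marks a gene with an extreme count in a library. With no value per library, which library that is, and whether a group mean rests on it, cannot be seen. This coactivator gene is kept among the 56 members in the medians and correlations above.

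No gene noted for ethylene synthesis or signalling was called, in lists too short to tell this from the shares of all genes. Those shares were 2.42% higher and 1.08% lower in inefficient genotypes, and 0.246% and 0.0345% in efficient genotypes. Of 13 genes noted for ethylene synthesis, 12 were tested in inefficient and 13 in efficient genotypes, and none was called in either class in the authors' deposited tables. Their means, derived from the authors' deposited tables and summed, were 5861 normalised counts without Zn and 11094 with Zn in inefficient genotypes, and 7646 without Zn and 12295 with Zn in efficient genotypes. Most of each sum came from the ACC oxidase OS02G0771600, with log2 fold changes of -1.13 (SE 0.30) in inefficient and -0.77 (SE 0.30) in efficient genotypes, from the authors' deposited tables. A further ACC oxidase, OS01G0580500, had -1.10 (SE 0.33) in inefficient and -0.99 (SE 0.33) in efficient genotypes, from the authors' deposited tables. OS04G0578000, an ACC synthase that makes the ethylene precursor, and OS05G0149400, an ACC oxidase that turns it into ethylene, had 2.08 (SE 0.41) and 2.18 (SE 0.41) in inefficient genotypes by the authors' deposited table. The ACC synthase OS03G0727600 had -2.18 (SE 0.61) there. Values of the list thus lay on both sides of 0, and the median of its 11 genes that reached a mean of 20 was 0.03. Of 14 genes matched as ethylene receptors and signalling components, 10 were tested in inefficient and 13 in efficient genotypes, with no call in the authors' deposited tables. The notes of 2 of these 14, OS06G0586900 and OS09G0131200, describe elicitor-inducible receptor-like proteins instead.

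Genes of the kind that these factors are known to bind in other settings were also counted. Of 66 chitinase, defensin, glucanase, osmotin and thaumatin genes tested in inefficient genotypes, 5 were called higher and 2 lower, against the 2.42% and 1.08% of all genes given above, and 0 of 70 were called in efficient genotypes by the authors' deposited tables. The 5 higher were chitinases, enzymes that cut the chitin of fungal walls: OS10G0542900 at 4.56 (SE 0.61), OS05G0247100 at 4.36 (SE 1.07), OS03G0132900 at 3.96 (SE 0.74), OS01G0687400 at 3.51 (SE 0.67) and OS01G0660200 at 2.94 (SE 0.33), log2 fold changes in the authors' deposited table. The 2 lower were the thaumatin-like genes OS06G0691200 at -2.78 (SE 0.44) and OS10G0146200 at -2.65 (SE 0.36) by the authors' deposited table. The median of the 60 genes of this list that reached a mean of 20 was 0.96 in inefficient and 0.54 in efficient genotypes, from the authors' deposited tables. For the difference of responses, 3 of 66 were called higher and none lower, where 1.58% of all genes were called higher and 0.783% lower. Computed from the authors' deposited tables, these were OS10G0542900 at 2.89 (SE 0.86), OS10G0416500 at 1.72 (SE 0.48) and OS01G0660200 at 1.57 (SE 0.47). Of dehydrin and late embryogenesis genes, the kind bound by DREB factors, 1 of 14 tested was called in inefficient genotypes, OS01G0314800 at 4.50 (SE 0.50) by the authors' deposited table, and 0 of 20 in efficient ones. The same 2.42% and 1.08% of all genes apply in inefficient genotypes, and 0.246% and 0.0345% in efficient ones. The difference of responses of OS01G0314800 computed from the authors' deposited tables was 3.79 (SE 0.71), with a Benjamini-Hochberg adjusted p of 4.11e-05. This gene too has a test score, 2.67, but no deposited p over all genotypes. The other 6 genes of this list with a mean of at least 20 had negative values in inefficient genotypes, and the median of all 7 was -0.38, from the authors' deposited table. The dehydrin OS02G0669100 had -1.46 (SE 0.27) in inefficient and -0.18 (SE 0.27) in efficient genotypes, from the authors' deposited tables. The difference of responses of this dehydrin computed from the authors' deposited tables was -1.28 (SE 0.38), with a Benjamini-Hochberg adjusted p of 0.0411. Binding by AP2/ERF factors was not measured here.

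Markers of other tissues and of dividing cells were counted in the same comparisons. For each list below, the authors' deposited tests called 2.42% of all genes higher and 1.08% lower in inefficient genotypes. In efficient genotypes these shares were 0.246% and 0.0345%. Of 52 dividing-cell genes, 51 were tested in inefficient genotypes, and 3 were called lower in the authors' deposited table. Their means, derived from the authors' deposited tables and summed, were 8186 normalised counts without Zn and 14168 with Zn in inefficient genotypes, and 10317 without Zn and 12487 with Zn in efficient genotypes. The median of the 43 with a mean of at least 20 was -0.69 in inefficient and -0.29 in efficient genotypes. For the difference of responses, 2 of 51 were called lower and none higher, where 0.783% of all genes were called lower and 1.58% higher. For 6 root markers, none of 5 tested was called, and the sums derived from the authors' deposited tables were 1337 without Zn and 3785 with Zn in inefficient genotypes, and 3696 without Zn and 3895 with Zn in efficient genotypes. Most of each sum came from OS02G0662000, an RCc3 protein gene, with 1254 without Zn and 3479 with Zn in inefficient genotypes, and 3486 without Zn and 3515 with Zn in efficient genotypes, derived from the authors' deposited tables. The RCc3 relatives OS04G0554500 and OS04G0554600 had log2 fold changes of -3.63 (SE 1.32) and -2.82 (SE 1.44) in inefficient genotypes, from the authors' deposited table. In efficient genotypes they had -2.81 (SE 1.29) and -4.09 (SE 1.49), from the authors' deposited table, with no call in either class. The other root markers with a mean of at least 20 changed less in efficient genotypes. There OS02G0662000 had -0.01 (SE 0.44), OS10G0551800 had -0.15 (SE 0.31) and OS04G0554800 had 0.48 (SE 0.48). In inefficient genotypes these had -1.47 (SE 0.44), -1.34 (SE 0.33) and -1.13 (SE 0.48), from the authors' deposited tables. For 52 green leaf genes, 1 of 40 tested was called lower in inefficient and 0 of 42 in efficient genotypes, and the sums derived from the authors' deposited tables were 10406 without Zn and 9410 with Zn in inefficient genotypes, and 10024 without Zn and 7676 with Zn in efficient genotypes. No root or dividing-cell marker had a mean under 1, and 7 green leaf genes did. The part of tissue makeup in the responses of the AP2/ERF genes was not tested.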

How the data were processed

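The tools that the authors used are, per the submitters' processing notes, HISAT2 2.0.4 and featureCounts (Subread 1.5.0-p3) with DESeq2 1.12.3, beside Trimmomatic 0.36 and FastQC 0.11.5, on build IRGSP-1.0, with an annotation release not stated there. Each of the authors' deposited tables gives a signal (the mean over libraries of counts divided by DESeq2 size factors), the log2 fold change with its SE, a test score, and p-values with adjusted p-values, per the file headers. Per the deposited score and p-value, the authors' test asks for a change beyond 2-fold, and the log2 fold changes are unshrunken. The lowest mean adjusted was 4.20 in inefficient and 1.71 in efficient genotypes. Depth per library, library-level tests, coordinates and sequences were not analysed here.

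Group means were derived from the overall mean and 4 contrasts, assuming equal weights, and used where the contrasts closed within 0.01 (77 of 83 members, and each of those named). The response difference is the difference of the fold changes of the Zn tables, which share no library, divided by the square root of the sum of their squared SEs; its p is two-sided from the normal distribution, adjusted by Benjamini-Hochberg for 24127 genes; the test of no change uses fold change over SE likewise. The scripts for these tests were tested on simulated data. Members were found by words in the decoded notes, and classes, related genes and markers likewise, with symbols such as EIL matched at the start of a word. Named genes are called members with a mean of at least 20, 6 fixed loci and the 3 highest means; others were added for class descriptions after their values were seen. Members, lists and classes were chosen with earlier results of these data known. Alternatives changed the threshold, the null hypothesis, the filter, the SE and the family definition. Versions were scipy 1.17.1, numpy 2.4.6, matplotlib 3.10.9, pandas 2.3.3 and Python 3.11.15.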

Additional observations from a re-analysis of the deposited data

Results flagged for a closer look

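OS01G0693400 was set apart because its Zn response differed between the classes of genotypes by a test of the difference itself. The difference computed from the authors' deposited tables, inefficient minus efficient, was 1.43 on the log2 scale (SE 0.41, Benjamini-Hochberg adjusted p 0.0257). The response was 2.43 (SE 0.29) in inefficient and 1.00 (SE 0.29) in efficient genotypes in the authors' deposited tables, and no library-level check was possible.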

How the results depend on the processing

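No paired analysis was possible because the tables hold no values per library, and for the same reason no library could be left out in turn. With a test of no change in place of a change beyond 2-fold, the members called were 15 in inefficient, 8 in efficient and 22 over all genotypes for the Zn response, and 7 without Zn and 2 over both supplies for the class difference; the class difference with Zn kept 0. With each SE multiplied by the robust SD of fold change over SE (2.50, 1.52 and 2.74), 1 member was called in inefficient, 1 in efficient and 0 over all genotypes. OS12G0582900 was the gene in both classes, at 5.81 with an adjusted p of 0.0101 in inefficient genotypes. These robust SDs also take in any true responses to Zn. With the 32 members whose note does not begin with "similar to", the counts were 3, 1 and 1. The difference of response of OS01G0693400 left 0 members at an adjusted p under 0.01, and 0 when a difference beyond 2-fold was asked for. The counts stayed the same with a mean of at least 20, with no filter, with the 2 definitions chosen after seeing the data (without the 3 non-factors, and a wider pattern of 104 genes), and, for the Zn responses, at an adjusted p under 0.01. Leaving out the 3 non-factors could not change the counts, because none of them was called. A mean of at least 20 takes out none of the called members. These alternatives keep the deposited fold changes, so they cannot test the sign of any gene. The depth of single libraries, which limits genes near 0 counts most, is unknown here.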

Other observations

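The gene next to OS01G0693400 by locus number, OS01G0693300, noted as a lipid phosphate phosphatase, was also called higher in inefficient genotypes without Zn, at 3.16 (SE 0.67, DESeq2 adjusted p 0.0349) in the authors' deposited table. The other neighbours within 2 loci of the 5 called genes were not called.

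A wider set of note words added 21 genes, and none of them was called. OS06G0222400, a relative of DRE-binding protein 2, had 1.21 (SE 0.18) in inefficient and 0.47 (SE 0.18) in efficient genotypes in the authors' deposited tables. OS04G0610400, noted as an APETALA-2-like factor in the balance of abscisic acid and gibberellin, had 1.15 (SE 0.27) in inefficient and 1.06 (SE 0.27) in efficient genotypes there. OS05G0361700, a relative of EREBP-2, had -1.66 (SE 0.36) in inefficient and -0.86 (SE 0.36) in efficient genotypes in the authors' deposited tables. These genes were chosen after their values were seen.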
